A study of Mus musculus with 6 samples.

Results

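The HOX genes are 39 transcription factor genes, and all 39 (symbols Hoxa, Hoxb, Hoxc or Hoxd followed by a number, of 45320 gene identifiers in the tables) were found by their Ensembl identifiers in RNA sequencing of mouse brown adipose tissue. The mice were C57BL/6, began a calorie-rich diet high in sugar and fat at 4 weeks of age, and had received it for 4 weeks when they were divided. The untreated group (samples 13, 14 and 15) stayed on the diet alone, and the treated group (samples 17, 33 and 35) had RO5508887 added to it, a small molecule that inhibits BACE1, a protease. Samples 33 and 35 carried the same value for each of the 45320 genes. They thus differed by less than sampling noise and count here as 1 sample, treated 33/35, which leaves 3 untreated and 2 treated libraries. The labels do not name the brown fat depot, nor whether each sample is a separate animal, so each p-value reflects only the spread among these libraries, which may be technical.

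HOX genes lie in 4 clusters (HoxA to HoxD), and genes at the same place in different clusters form 13 paralog groups, numbered from the 3′ to the 5′ end of each cluster. On GRCm38, HoxA (11 genes) lies at chromosome 6, 52155590 to 52260880, HoxB (10 genes) at chromosome 11, 96194316 to 96368256, HoxC (9 genes) at chromosome 15, 102921103 to 103036852, and HoxD (9 genes) at chromosome 2, 74668310 to 74765142. In the embryo the low-numbered groups act towards the head and the high-numbered groups towards the tail, and each part of the trunk keeps a combination of active HOX genes, its positional code. Adult fat depots retain such a code, and Hoxc8 and Hoxc9 in particular are often used as markers of white fat. The proteins bind DNA through the homeodomain, mostly together with cofactors of the PBX, MEIS and PKNOX families.

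The libraries held brown fat transcripts and varying amounts of skeletal muscle transcripts. Levels are given in FPKM, a fragment count scaled for transcript length and sequencing depth, which can be set side by side between genes. All 10 brown adipocyte markers, Ucp1 among them, had a mean of at least 1 FPKM. The 29 skeletal muscle markers measured made up, of all FPKM not from mitochondrial genes, 8.55% in untreated 14. They made up 3.42% and 1.47% in treated 17 and 33/35 and only 0.0339% and 0.0329% in untreated 13 and 15, and 28 of the 29 were highest in untreated 14. Brown adipocyte markers made up between 0.877% and 1.23%, except in untreated 14, where they made up 0.384%. In bulk tissue, fewer cells of a type and less RNA per cell cannot be told apart. Read totals were not known, although low values placed the depth of the libraries at 0.811 to 1.01 relative to untreated 13.

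The homeoboxes of 3 members of paralog group 8 are shown first, because Hoxd8 and Hoxc8 varied by ratios of 7.01 and 7.47 between libraries, in different orders, while Hoxb8 was low throughout. Each is the 180-base stretch that encodes the homeodomain, read from the GENCODE M21 transcripts, in lower case. Capitals mark bases that differ from Hoxd8.
Hoxd8: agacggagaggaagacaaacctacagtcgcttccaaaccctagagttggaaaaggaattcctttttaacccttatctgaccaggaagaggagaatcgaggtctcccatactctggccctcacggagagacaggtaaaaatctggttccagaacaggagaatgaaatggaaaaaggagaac
Hoxc8: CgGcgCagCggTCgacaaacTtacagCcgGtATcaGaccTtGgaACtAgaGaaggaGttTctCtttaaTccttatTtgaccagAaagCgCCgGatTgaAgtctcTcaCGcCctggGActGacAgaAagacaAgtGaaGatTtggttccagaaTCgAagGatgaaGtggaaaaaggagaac
Hoxb8: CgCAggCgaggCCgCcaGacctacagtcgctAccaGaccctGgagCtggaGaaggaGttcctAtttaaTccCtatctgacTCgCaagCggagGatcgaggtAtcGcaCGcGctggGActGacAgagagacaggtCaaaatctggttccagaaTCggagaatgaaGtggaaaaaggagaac
Hoxc8 differed from Hoxd8 at 48 of these bases but at only 4 encoded residues, and Hoxb8 at 35 bases and 3 residues. Over all 39 genes, homeoboxes of the same paralog group had a median identity of 80.6% (42 pairs), against 61.7% within a cluster (172 pairs, which share their location). The longest run of identical transcript bases between HOX genes of different clusters was 52 bases (Hoxa6 and Hoxb4), and between Hoxc8 and Hoxd8 it was 20 bases. The read length was not given in the sources used here.

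The libraries expressed paralog groups 2 to 8, most strongly groups 4 to 8, and carried almost no transcript of groups 10 to 13. Of the 39 genes, 13 were at or above 1 FPKM in every library, 6 in some libraries only, 4 had a mean of at least 0.1 FPKM without reaching 1 FPKM in any, and 16 had a mean under 0.1 FPKM. Those 16 comprised all 12 members of groups 10 to 13 together with Hoxb1, Hoxd1, Hoxd3 and Hoxc9. All 13 genes at or above 1 FPKM throughout belonged to groups 1 to 8, which have 23 members. Groups 4 to 8 held 83.6% to 91.2% of the summed HOX FPKM of a library, groups 1 to 3 held 7.08% to 13.9%, and groups 9 to 13 held 1.30% to 8.46%. Group 9 alone held 1.16% (untreated 15) to 8.36% (untreated 14). Its only member to reach 1 FPKM was Hoxd9, in 3 libraries.

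**Figure D1:**
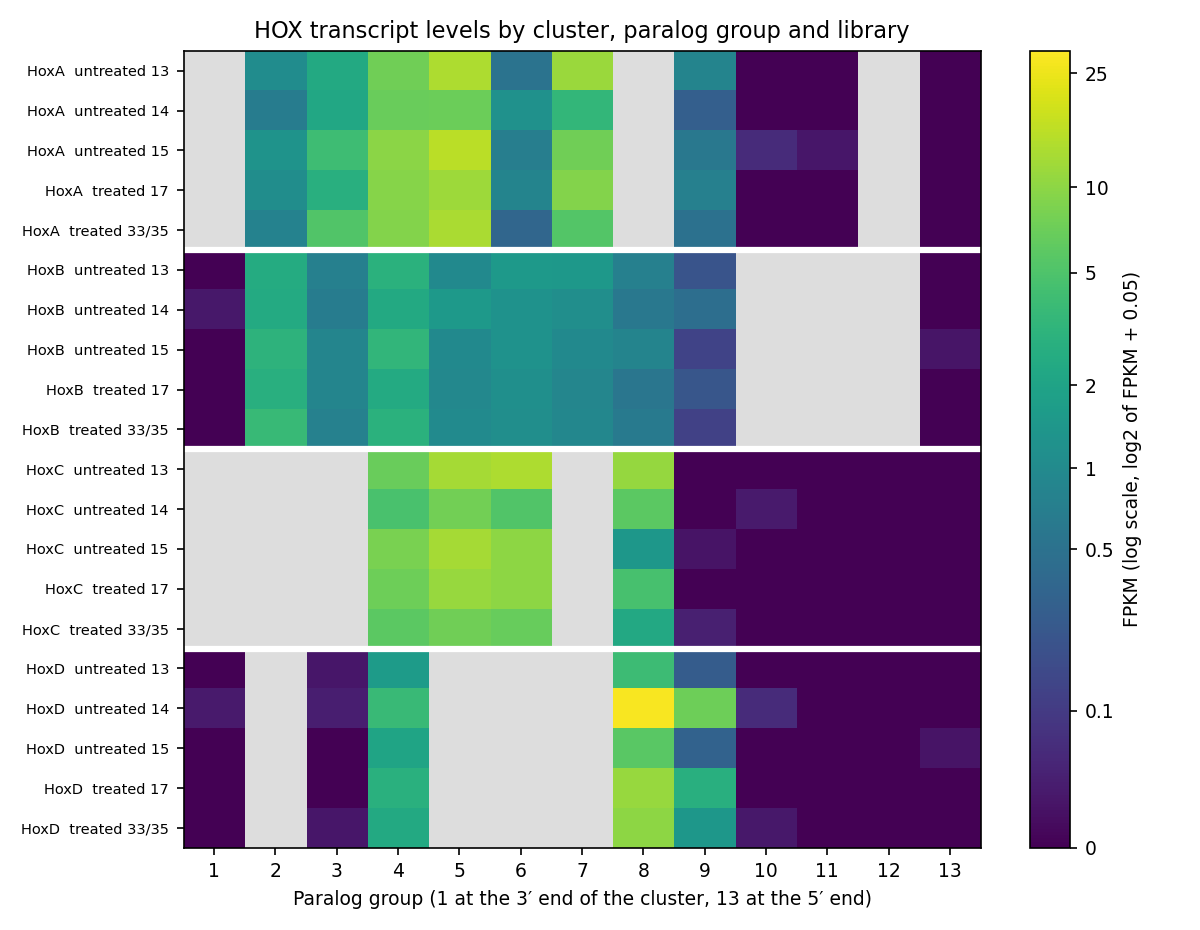
Level of each HOX gene (FPKM on a log scale, colour) by paralog group (columns) and by cluster and library (rows); grey marks positions with no gene or with a gene not reported here. Most members of groups 4 to 8 are bright in every library, groups 10 to 13 are dark in every library, and Hoxd8 and Hoxd9 are brightest in untreated 14.

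Groups 5 and 4 had the highest summed levels, with means of 23.6 and 20.5 FPKM. Hoxa5, a regulator of trunk and lung patterning, had the highest mean of all members and measured 13.7, 7.03 and 15.5 FPKM with diet alone (samples 13, 14 and 15) and 11.7 and 13.3 FPKM with RO5508887 (17 and 33/35). It was the highest HOX gene in 4 of the 5 libraries, and the treated values lay within the untreated range. Hoxc5 measured 12.6, 7.63 and 12.6 FPKM with diet alone and 11.3 and 7.42 FPKM with RO5508887 (17 and 33/35). Hoxb5, the third member, stayed near 1 FPKM, at 0.991, 1.49 and 0.997 FPKM with diet alone and 0.933 and 1.03 FPKM with the drug.

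Group 4 was the only paralog group in which each member was at or above 1 FPKM in every library. Hoxa4 measured 7.53, 6.85 and 9.84 FPKM with diet alone (samples 13, 14 and 15) and 9.41 and 9.09 FPKM with RO5508887 (17 and 33/35). Hoxc4 measured 6.98, 4.70 and 8.15 FPKM and 7.31 and 5.87 FPKM in the same order. Hoxb4, known for its role in blood stem cell expansion, was lower, at 2.94, 2.38 and 3.36 FPKM with diet alone and 2.47 and 2.91 FPKM with the drug. Hoxd4, given with the other HoxD genes, was lowest of the 4 by mean. Within HoxA and HoxC the neighbours kept their order, with Hoxa5 above Hoxa4 by a ratio of 1.03 to 1.82 and Hoxc5 above Hoxc4 by a ratio of 1.26 to 1.80 in the 5 libraries.

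In groups 6 and 7 a single cluster carried most of the signal. Hoxc6 measured 13.5, 5.24 and 10.2 FPKM with diet alone (samples 13, 14 and 15) and 10.1 and 6.69 FPKM with RO5508887 (17 and 33/35). Of its paralogs, Hoxb6 lay between 1.14 and 1.55 FPKM, and Hoxa6 was lower still, at 0.523, 1.21 and 0.725 FPKM with diet alone and 0.855 and 0.362 FPKM with the drug. Hoxa7 measured 11.3, 3.44 and 7.50 FPKM without the drug and 9.02 and 5.43 FPKM with it, and Hoxb7 lay between 0.893 and 1.45 FPKM. Both Hoxc6 and Hoxa7 were highest in untreated 13 and lowest in untreated 14, and neither separated the groups.

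The low-numbered groups were present at lower levels. Hoxa3, which patterns the throat and neck, measured 2.37, 2.29 and 4.05 FPKM with diet alone (samples 13, 14 and 15) and 2.80 and 5.30 FPKM with RO5508887 (17 and 33/35). Hoxb2, a hindbrain patterning gene, measured 2.49, 2.42 and 3.05 FPKM with diet alone and 2.81 and 3.65 FPKM with the drug. Both were lowest in untreated 14 and highest in treated 33/35, with overlapping groups. Hoxa2 lay on both sides of 1 FPKM, at 1.08, 0.683 and 1.28 FPKM with diet alone and 1.11 and 0.811 FPKM with the drug. Hoxb3 stood at 0.754, 0.685 and 0.879 FPKM with diet alone and 0.867 and 0.774 FPKM with the drug. Neither separated the groups. Hoxb1 and Hoxd1 were each above 0 in untreated 14 alone, at 0.0261 and 0.0296 FPKM, and Hoxd3 did not exceed 0.0348 FPKM. The most 3′ gene at or above 1 FPKM in every library was Hoxa3 in HoxA, Hoxb2 in HoxB, Hoxc4 in HoxC and Hoxd4 in HoxD.

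Levels fell at the 5′ side of each cluster, between groups 7 and 10. In HoxC the drop was steepest, from a mean of 5.01 FPKM for Hoxc8 to 0.0118 FPKM for Hoxc9, whose annotated 3′ ends lie 9.01 kb apart. Hoxc9 was listed at 0 in untreated 13 and 14 and treated 17, at 0.0209 FPKM in untreated 15 and at 0.0383 FPKM in treated 33/35. In HoxA the mean fell from 7.34 FPKM (Hoxa7) to 0.598 FPKM (Hoxa9) and 0.0120 FPKM (Hoxa10). Hoxa9 stood at 0.845, 0.298 and 0.593 FPKM with diet alone and 0.758 and 0.495 FPKM with the drug. HoxB declined in smaller steps, from Hoxb7 (1.07 FPKM) through Hoxb8 (0.683 FPKM) and Hoxb9 (0.230 FPKM) to Hoxb13 (0.00452 FPKM). Hoxb8 stood at 0.752, 0.590 and 0.851 FPKM with diet alone and 0.572 and 0.650 FPKM with the drug. In HoxD the widest drop of the mean lay between Hoxd9 (2.41 FPKM) and Hoxd10 (0.0173 FPKM), 5.10 kb apart. That mean rested on the other libraries, as untreated 13 and 15 were already low at Hoxd9. There it stood at 0.268 and 0.328 FPKM, against 3.98 and 5.84 FPKM for Hoxd8. Of the 12 members of groups 10 to 13, 6 were listed at 0 in every library, and the other 6 reached at most 0.0608 FPKM (Hoxd10 in untreated 14). An exact 0 in such tables can be a failed estimate and does not show that a transcript was absent. Calcoco2, a widely expressed gene near HoxB, was likewise listed at 0 in all 5 libraries.

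**Figure D2:**
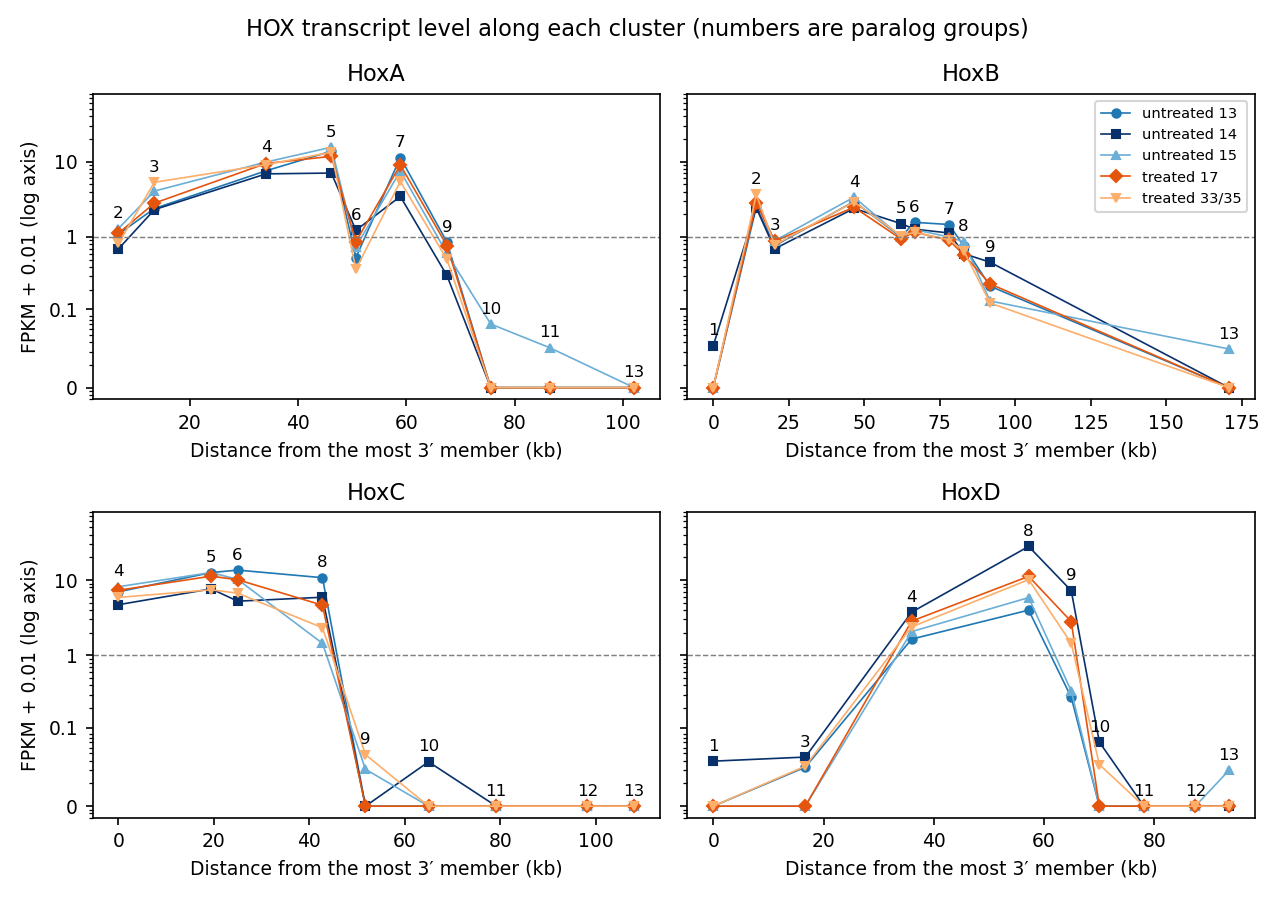
FPKM + 0.01 (log axis) of each HOX gene reported here against its distance in kb from the most 3′ member of its cluster, 1 line per library, with paralog groups as numbers and the dashed line at 1 FPKM. All libraries fall steeply past group 8 in HoxC. In HoxD all fall past group 9, but untreated 13 and 15 already lie under 1 FPKM at Hoxd9. Hoxd8 and Hoxd9 fan out between libraries.

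Whether the libraries shared a code was counted by which genes were at or above 1 FPKM. Of the 39 genes, 33 lay on the same side of 1 FPKM in all 5 libraries, as did 93.7% of all 45320 genes, but 20 of the 33 were under 1 FPKM throughout. Of the 19 members that reached 1 FPKM in any library, 13 did so in every library, against 80.6% of all genes that reached it in any. Among the other 6 were Hoxa2, Hoxa6, Hoxb5 and Hoxb7, whose means lay between 0.736 and 1.09 FPKM, and Hoxd9. A library had between 14 (untreated 15) and 17 (untreated 14) members at or above 1 FPKM. The most 5′ member at or above 1 FPKM was Hoxa7 in HoxA and Hoxc8 in HoxC in all 5 libraries. It was Hoxb7 in untreated 13 and 14 and Hoxb6 in the other libraries, and it was Hoxd9 in untreated 14, treated 17 and treated 33/35 but Hoxd8 in untreated 13 and 15. Untreated 13 and 15, in which the muscle markers were lowest, had members of groups 2 to 8 at or above 1 FPKM, as had the other 3.

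**Figure D3:**
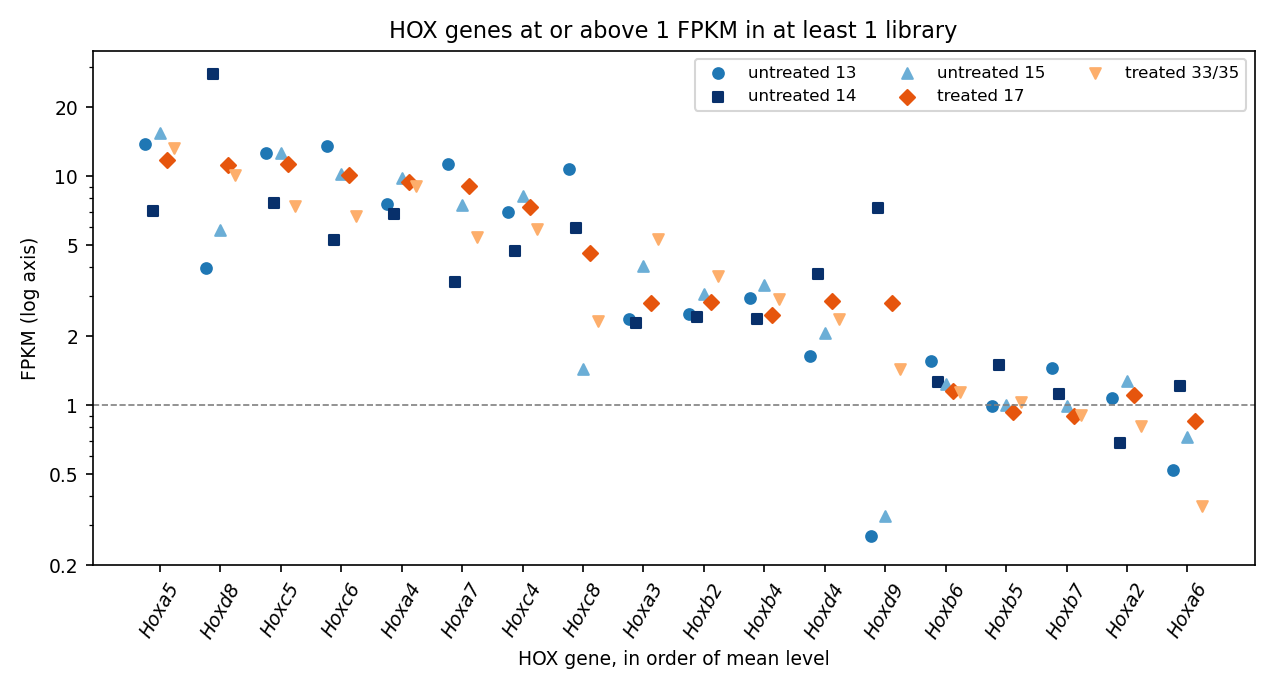
FPKM (log axis) in each of the 5 libraries for the HOX genes reported here that reached 1 FPKM in at least 1 library, in order of mean level; the dashed line marks 1 FPKM. The points of Hoxd9, Hoxc8 and Hoxd8 spread most, with ratios of highest to lowest of 27.0, 7.47 and 7.01.

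Across the 13 genes at or above 1 FPKM throughout, the Pearson correlation of log2 levels between 2 libraries ran from 0.461 (untreated 13 and 14) to 0.912 (untreated 15 and treated 33/35), over 10 pairs of libraries. Without Hoxd4 and Hoxd8 (11 genes) the range was 0.653 (untreated 13 and treated 33/35) to 0.946. Untreated 13 and 14 then correlated at 0.894, while untreated 13 and 15 went from 0.711 to 0.684. Both genes were highest in untreated 14, so leaving them out favours pairs with that library and cannot show a shared code. Over the 33 members above 0 in at least 1 library the range was 0.843 to 0.978. Over all 13527 genes tested, the range was 0.750 to 0.966. These sets span unlike ranges of level, so their correlations cannot be compared directly. These values are across genes, which are not independent replicates and share each library's tissue content, and are a description only. The ratio of the highest to the lowest library had a median of 2.20 over the 13 genes and 1.97 over the 16 members with a mean of at least 1 FPKM. It was 1.69 over all 13232 tested genes with a value above 0 in every library. These sets were not matched for level, so their medians cannot be compared directly either.

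Among the 16 members with a mean of at least 1 FPKM, Hoxd9 had the largest ratio between libraries. Hoxd8 measured 3.98, 27.9 and 5.84 FPKM with diet alone (samples 13, 14 and 15) and 11.2 and 10.1 FPKM with RO5508887 (17 and 33/35). Hoxd9 measured 0.268, 7.22 and 0.328 FPKM with diet alone and 2.80 and 1.44 FPKM with RO5508887 (17 and 33/35). Hoxd4, whose exons overlap those of Hoxd3, measured 1.64, 3.74 and 2.06 FPKM and then 2.84 and 2.38 FPKM. All 3 were highest in untreated 14, then in treated 17, then in treated 33/35, and lowest in untreated 13 and 15. This was also the order of the muscle markers. Of the 16 members with a mean of at least 1 FPKM, these 3 followed that order, which held for 12.9% of all 13527 genes at that level. The count is too small to set the HOX genes apart from that share. HoxD genes made up 40.9% of the HOX sum in untreated 14, 17.5% and 16.8% in treated 17 and treated 33/35, and 5.97% and 8.91% in untreated 13 and 15. The skeletal muscle markers took 8.55% of the FPKM sum in untreated 14 against 0.0339% and 0.0329% in untreated 13 and 15, and their part in the HoxD levels was not tested.

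HoxA stood lower in untreated 14 than elsewhere. The summed HoxA level was 22.4 FPKM there against 35.8 to 40.4 FPKM in the other 4 libraries, and HoxB ranged from 9.92 to 11.5 FPKM. HoxC was low in untreated 14 (23.5 FPKM) and in treated 33/35 (22.3 FPKM) and measured 32.4 to 43.8 FPKM in the rest. Of the 16 members with a mean of at least 1 FPKM, 8 were lowest in untreated 14 (Hoxa3, Hoxa4, Hoxa5, Hoxa7, Hoxb2, Hoxb4, Hoxc4 and Hoxc6), against 43.9% of all 13527 genes. Hoxa5 and Hoxb4 ran in the exact reverse order of the muscle markers, as did 10.8% of all genes. The sum over all 39 genes ranged from 83.3 FPKM in treated 33/35 to 98.9 FPKM in untreated 13. In untreated 14 the ratio of Hoxa5 to Hoxd8 was 0.252, and in the other libraries it was 1.05 to 3.45.

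**Figure D4:**
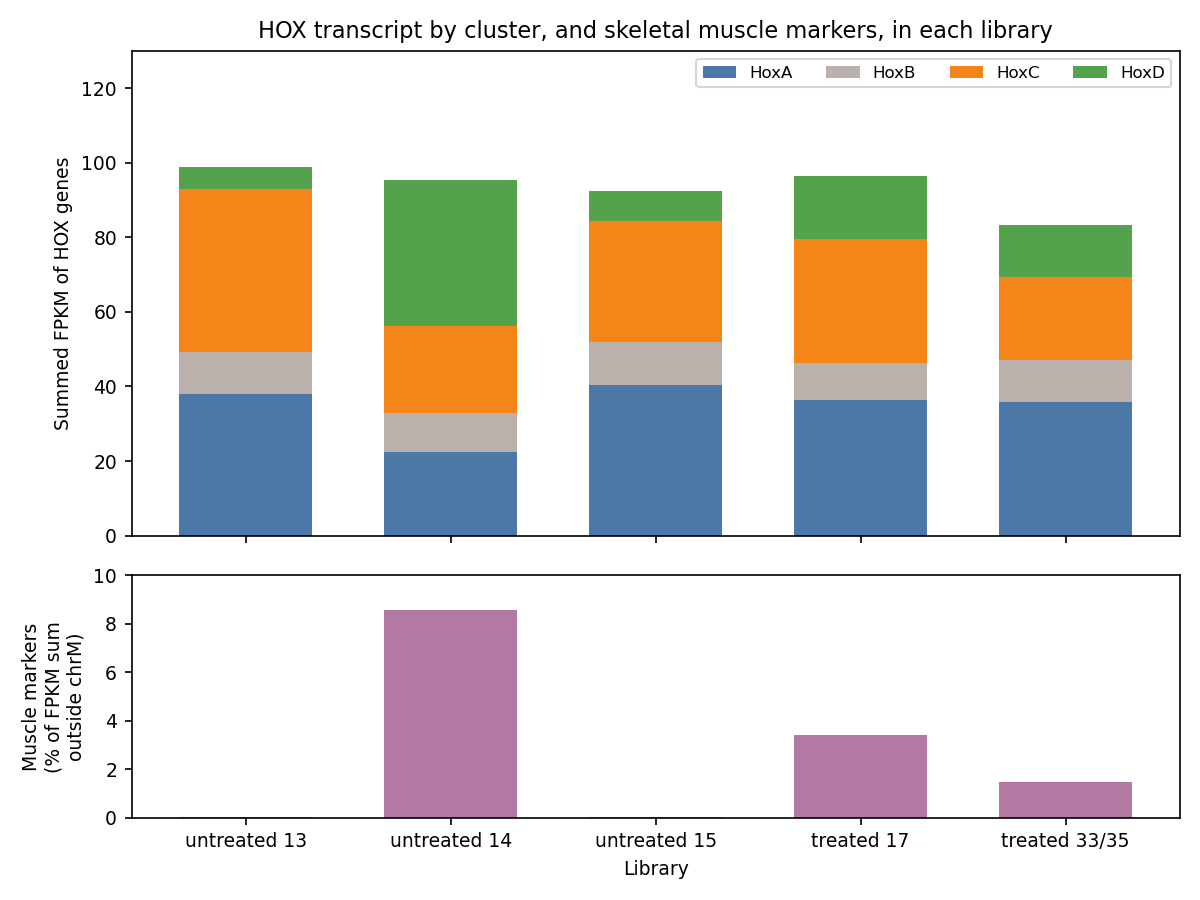
Summed FPKM of the HOX genes of each cluster (stacked bars, upper panel) and the share of 29 skeletal muscle markers in all FPKM not from mitochondrial genes (percent, lower panel) in each library. The HoxD part is tallest in untreated 14 (40.9% of the HOX sum), which also has the highest muscle share (8.55%), while the HoxB part lies between 9.92 and 11.5 FPKM.

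Hoxc8 varied by a ratio of 7.47, in another order than Hoxd8. It measured 10.7, 5.91 and 1.44 FPKM with diet alone (samples 13, 14 and 15) and 4.63 and 2.32 FPKM with RO5508887 (17 and 33/35). Untreated 13 was the highest and untreated 15 the lowest library, and the groups overlapped. The 8 fibroblast and mesothelium markers summed to 212 FPKM in untreated 13, 86.8 FPKM in untreated 15 and 217 to 301 FPKM in the other 3 libraries. Of these markers, Upk3b and Wt1 reached at most 0.0149 and 0.0380 FPKM, and their part in the Hoxc8 level was not tested. The white fat markers Lep, Retn, Nnat and Agt summed to 294 FPKM in untreated 13, 445 FPKM in untreated 14 and 132 FPKM in untreated 15. With RO5508887 they summed to 273 and 290 FPKM (17 and 33/35). Macrophage and blood markers summed to 1997 FPKM in untreated 13 and 642 to 1059 FPKM elsewhere. Schwann cell and nerve markers summed to 15.9 FPKM in untreated 15 and 30.7 to 51.7 FPKM elsewhere. The part of these lists was not tested either.

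The upstream sequences of Hoxd8, Hoxd9 and Hoxd4, which ran together, and of Hoxa5, which ran against them, are given for comparison. Each is the 250 bases before the start of transcription from RefSeq (GRCm38.p6), which held an entry for 22 of the 39 genes. Capitals mark matches, on either strand, to a HOX-PBX site (TGATNNAT), a CDX site (TTTATNG), the E-box preferred by MYOD (CAGCTG) or a TATA box (TATAAA). CDX and TATA matches can overlap.
Hoxd8 (chr2:74704365-74704614, plus strand): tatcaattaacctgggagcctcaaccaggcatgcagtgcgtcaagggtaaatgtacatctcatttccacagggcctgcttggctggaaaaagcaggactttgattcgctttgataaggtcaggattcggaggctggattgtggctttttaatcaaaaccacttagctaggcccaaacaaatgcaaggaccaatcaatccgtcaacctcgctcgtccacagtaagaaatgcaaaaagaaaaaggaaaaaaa
Hoxd9 (chr2:74697513-74697762, plus strand): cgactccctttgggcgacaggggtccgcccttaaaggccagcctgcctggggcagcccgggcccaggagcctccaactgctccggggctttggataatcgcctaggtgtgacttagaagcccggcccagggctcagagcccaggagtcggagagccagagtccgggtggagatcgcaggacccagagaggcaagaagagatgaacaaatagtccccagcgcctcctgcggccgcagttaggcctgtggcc
Hoxd4 (chr2:74721728-74721977, plus strand): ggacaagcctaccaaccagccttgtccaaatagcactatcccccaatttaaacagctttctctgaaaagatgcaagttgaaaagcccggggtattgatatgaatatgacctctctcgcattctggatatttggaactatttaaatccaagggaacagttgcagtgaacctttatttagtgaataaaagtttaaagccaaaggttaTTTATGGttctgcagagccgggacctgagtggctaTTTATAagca
Hoxa5 (chr6:52204588-52204837, minus strand): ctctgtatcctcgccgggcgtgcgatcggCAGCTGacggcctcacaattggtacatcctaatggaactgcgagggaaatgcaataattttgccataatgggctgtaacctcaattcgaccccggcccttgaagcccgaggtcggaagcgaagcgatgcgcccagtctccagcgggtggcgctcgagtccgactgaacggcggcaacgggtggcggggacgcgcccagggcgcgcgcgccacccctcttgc
Hoxd8 and Hoxd9 held none of these motifs in this window, Hoxd4 held a CDX and a TATA match, and Hoxa5 held an E-box match. Among 32851 upstream windows of this length, 7.68% held the HOX-PBX letters, 9.81% the CDX letters, 13.0% the E-box and 12.4% the TATA box. CpG dinucleotides numbered 6 for Hoxd8, 13 for Hoxd9, 3 for Hoxd4 and 28 for Hoxa5, with a median of 6 over all windows. A match describes letters and not a bound site. The RefSeq start of Hoxd4 lies 10049 bases from the 5′ end that GENCODE gives.

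The series compares the BACE1 inhibitor with the diet alone, and no HOX gene passed that test. Of the 39 members, 16 had a mean of at least 1 FPKM and entered the comparison (limma on log2(FPKM + 0.5), Benjamini-Hochberg adjustment over all 13527 genes), and 0 passed, also at an unadjusted p under 0.05. Over all genes, 0.0444% passed (6 genes, 0.0296% higher and 0.0148% lower with the drug), and 0.924% had an unadjusted p under 0.05. With so few genes reaching that level, 0 of 16 does not show that the drug left the HOX genes unchanged. The members' median log2 fold change, treated minus untreated, was 0.042 (9 higher, 7 lower), against 0.061 over all genes tested (8704 higher, 4823 lower). Without untreated 14 it was -0.20, with quantile normalization -0.084 and with median centring -0.070, so its sign was not stable. Each of the 16 had a limma adjusted p of 1.00.

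The widest log2 differences were those of Hoxd9 and Hoxc8, which also varied widely within the untreated group. Hoxd9 averaged 2.61 ± 4.00 FPKM on the diet alone (SD, n = 3) and 2.12 ± 0.966 FPKM on the drug (SD, n = 2), a log2 fold change of 0.58 (SE 1.16), and was thus higher on the log scale and lower on the FPKM scale. Hoxc8 averaged 6.03 ± 4.65 FPKM on the diet and 3.48 ± 1.63 FPKM on the drug, which gave -0.45 (SE 0.82). Hoxd8 averaged 12.6 ± 13.3 FPKM on the diet and 10.7 ± 0.751 FPKM on the drug (0.26, SE 0.85), and Hoxa5 12.1 ± 4.46 and 12.5 ± 1.10 FPKM (0.12, SE 0.37). For all 4 the treated values lay within the untreated range. Without untreated 14, the library with the most muscle transcript, the log2 fold change was 1.06 for Hoxd8, 1.67 for Hoxd9 and -0.22 for Hoxa5, and 0 members passed. The remaining untreated libraries, 13 and 15, were also the lowest in muscle markers, so the drug and the muscle share cannot be told apart there.

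Hoxb6 and Hoxb7, neighbours in HoxB, were the members whose groups did not overlap. Hoxb6 measured 1.55, 1.26 and 1.24 FPKM with diet alone (samples 13, 14 and 15) and 1.15 and 1.14 FPKM with the drug (log2 fold change -0.17, SE 0.23). Hoxb7 measured 1.45, 1.12 and 0.989 FPKM and then 0.893 and 0.906 FPKM (log2 fold change -0.26, SE 0.26). The gaps between the groups were narrower than the spread of the untreated libraries. Of the 16 members, 2 were lower in both treated libraries than in all untreated ones, as were 3.18% of all genes, and 0 were higher in both, against 5.5% of all genes.

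**Figure D5:**
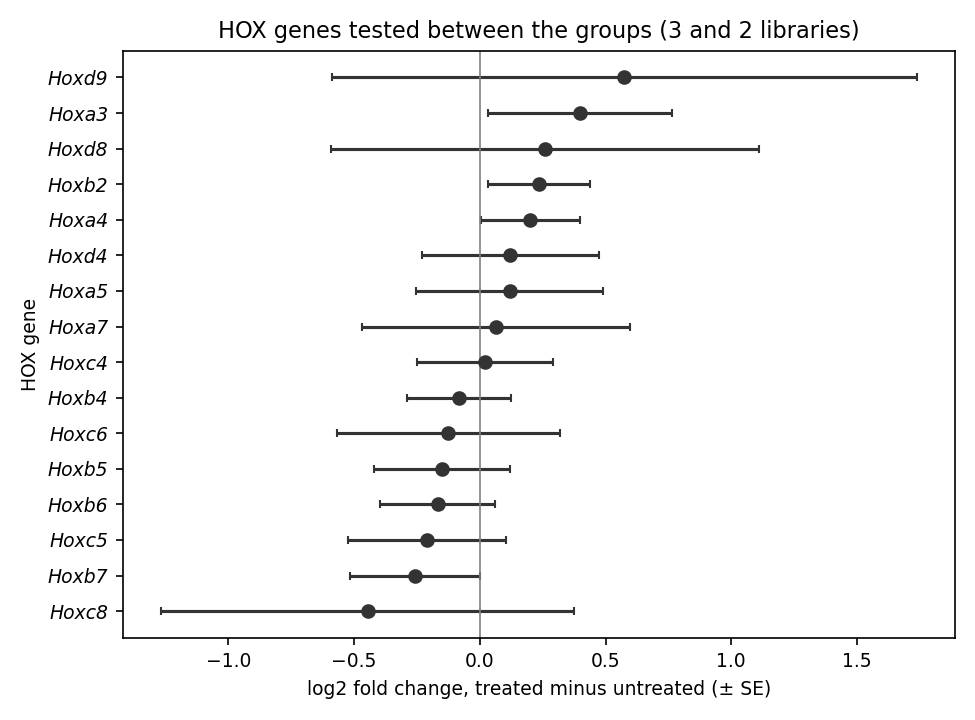
log2 fold change, treated minus untreated, with its SE from limma for the 16 HOX genes tested (3 untreated and 2 treated libraries). The points run from -0.45 (Hoxc8) to 0.58 (Hoxd9), no gene passed the test, and the error bars are widest for Hoxd9, Hoxd8 and Hoxc8.

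Most non-coding genes of the clusters were listed at 0. Of 49 non-coding genes inside the clusters or within 20 kb, 33 were listed at 0 in every library and 8 were at or above 1 FPKM in every library. Hotairm1, an antisense RNA of the HoxA cluster, measured 40.7, 9.47 and 45.4 FPKM with diet alone (samples 13, 14 and 15) and 43.8 and 56.7 FPKM with RO5508887 (17 and 33/35), so untreated 14 stood apart from the rest. By mean level it came after the miscellaneous RNA model Gm27477 (53.4 FPKM) and before the antisense gene Gm15050 (3.74 FPKM). Gm27867, another such model, averaged 8.79 FPKM, but this rested on 8.96 and 35.0 FPKM in untreated 14 and 15, with untreated 13 listed at 0 and both treated libraries near 0. Gm27867 lies within the annotated span of Hotairm1 on the same strand, and how reads were shared between them is not known. Hotair and Hottip, antisense RNAs towards the 5′ ends of HoxC and HoxA, were listed at 0 in all 5 libraries, as were all 7 miRNA genes, among them Mir10a and Mir10b. The libraries were made from total RNA, and no small RNA protocol is named in the labels. Of the 9 non-coding genes tested, 0 passed, with a median log2 fold change of 0.34.

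Of 11 flanking genes tested, 0 passed the test (median log2 fold change 0.093). Of these, 1 (Lnpk) ran in the order of the muscle markers and 2 (Mtx2 and Hibadh) in the reverse, against 12.9% and 10.8% of all genes. Lnpk, a protein of the endoplasmic reticulum that lies beside the 5′ end of HoxD, measured 3.87, 24.4 and 3.98 FPKM with diet alone (samples 13, 14 and 15) and 12.9 and 7.56 FPKM with RO5508887 (17 and 33/35). Mtx2, a mitochondrial protein beyond the 3′ end of HoxD, measured 31.8 FPKM in untreated 14 and 61.9 to 80.3 FPKM elsewhere. Evx1 and Evx2, homeobox genes next to the 5′ ends of HoxA and HoxD, were at 0 in every library except for 0.0114 FPKM of Evx2 in untreated 15. The flanking genes of all 4 clusters with the highest means were Atp5g2 (238 FPKM), Hibadh (234 FPKM), Hnrnpa3 (89.3 FPKM) and Mtx2 (65.4 FPKM).

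The cofactors that HOX proteins bind with were present. Of 9 PBX, MEIS and PKNOX genes, 8 had a mean of at least 1 FPKM, and 0 passed the test (4 higher, 4 lower, median log2 fold change 0.087). Pbx2 was highest, with 18.3, 10.2 and 18.6 FPKM with diet alone (samples 13, 14 and 15) and 16.9 and 17.8 FPKM with RO5508887 (17 and 33/35). Meis2 had a mean of 4.63 FPKM and Pknox1 of 4.33 FPKM. Of the 8, 1 (Pknox2) ran in the order of the muscle markers and 2 (Pbx2 and Pbx3) in the reverse, against 12.9% and 10.8% of all genes. Pknox2 measured 12.7 FPKM in untreated 14, 4.44 and 1.42 FPKM with RO5508887 (17 and 33/35), and 0.242 and 0.271 FPKM in untreated 13 and 15.

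No chromatin regulator that keeps HOX genes on or off passed the test. Of 21 trithorax and Polycomb genes, 20 were tested and 0 passed (13 higher, 7 lower, median 0.093). Over all genes tested, 8704 were higher and 4823 lower, with a median of 0.061. The highest were Ezh1, a Polycomb methyltransferase, with a mean of 25.8 FPKM, Bmi1 with 22.8 FPKM, Phc2 with 18.8 FPKM and Kdm6b, a demethylase that opposes Polycomb, with 13.9 FPKM. Kdm6b measured 12.3, 7.62 and 13.4 FPKM with diet alone (samples 13, 14 and 15) and 15.5 and 20.7 FPKM with the drug (log2 fold change 0.70, SE 0.30, limma adjusted p = 1.00). Among 13 retinoid genes, which act upstream of HOX genes in the embryo, 9 were tested and 0 passed (median 0.022). Aldh1a1, a retinaldehyde dehydrogenase, had the highest mean, 40.5 FPKM, followed by Rxrb (28.0 FPKM), Rxra (24.4 FPKM) and Rxrg (20.8 FPKM). Of these 9 genes, 2 ran in the order of the muscle markers and 1 (Rxrb) in the reverse, against 12.9% and 10.8% of all genes. Aldh1a1 was 1 of the 2, from 3.13 FPKM in untreated 15 to 118 FPKM in untreated 14.

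Other transcription factors that mark body position or fat depot did not pass the test either. Of 26 listed, 15 were tested and 0 passed (13 higher, 2 lower, median log2 fold change 0.29). All genes tested had 8704 higher, 4823 lower and a median of 0.061. Of the 15, 5 ran in the order of the muscle markers (Tbx15, Irx5 and Emx2 among them) and 1 (Meox1) in the reverse. These orders held for 12.9% and 10.8% of all genes. Tbx15, a regulator of trunk muscle and fat depots, measured 61.5 FPKM in untreated 14, 24.6 and 8.87 FPKM with RO5508887 (17 and 33/35), and 2.02 and 1.26 FPKM in untreated 13 and 15. Meox2, a homeobox gene of the somites, had a mean of 10.2 FPKM, and Twist1, a mesenchymal factor, one of 9.99 FPKM. The Cdx genes, activators of trunk HOX genes in the embryo, were at or near 0, with Cdx2 and Cdx4 listed at 0 in every library.

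Some HOX values depend on how reads were shared between overlapping genes. Exons of another gene on the same strand covered 62.3% of the exonic length of Hoxd3 and 52.3% of that of Hoxd4, so their values are uncertain. Exons on the opposite strand covered 52.9% of Hoxb3, 27.3% of Hoxb2, 25.4% of Hoxa3 and 20.4% of Hoxa7. The sources used here do not say whether strand was kept in counting, and reads from such a gene and its antisense partner could not be told apart without it. Hoxa5, Hoxc6, Hoxc8, Hoxd8 and Hoxd9 had no exonic overlap with another gene of the tables.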

How the data were processed

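Total RNA of whole brown adipose tissue went through Trizol extraction and an Illumina total RNA kit (per the labels). The authors deposited 6 tables of FPKM values, per the file headers. Per the submitters' processing notes, CASAVA 1.7 and build GRCm38 were used. Which aligner, quantifier and annotation were used is not given in the sources used here. Read totals were unknown, so no counting interval is given.

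Symbols and coordinates came from GENCODE M21 (GRCm38), which held 44481 of 45320 identifiers. Identical tables were counted once. The 13527 genes averaging 1 FPKM or more were compared on log2(FPKM + 0.5) with limma 3.58.1 in R 4.3.3 (empirical Bayes with a variance trend, residual df 3, two-sided, Benjamini-Hochberg adjusted p under 0.05). Fold changes on this scale understate those of low genes. The fit was also run on simulated data whose spread was taken from the least variable genes only. That run does not show what the fit could detect among the HOX genes. A member counted as expressed at 1 FPKM or more in every library. Python 3.11.15, pandas 2.3.3, biopython 1.88 and matplotlib 3.10.9 were used. Alternatives covered the pseudocount, filter, scaling, variance model, weights, threshold and each library left out. After the data were seen, counting the identical tables separately was added, as were the alternatives for the number of members on the same side of 1 FPKM. Values were given for members at or above 1 FPKM in every library, within a factor of 2 of it, or varying at least 4-fold between libraries, and for the 4 highest genes of the other lists. The further genes named in those lists, the paralogs chosen for sequences and the orders compared with the muscle markers were picked after values were seen. The members and lists were chosen with earlier results of these data known. Some members and listed genes that the naming rule covers are not reported here, though they remain in the counts and sums.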

Additional observations from a re-analysis of the deposited data

How the results depend on the processing

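No paired analysis was possible because the groups share no replicate number. The count of HOX genes that passed the test was 0 in the fit reported and under all 15 alternatives, and the smallest limma adjusted p of a member in any of the 238 single fits was 0.145. The count over all genes was 6 in the fit reported. It was 2 with a pseudocount of 0.1, 0 without a filter on low values and 10 with array weights, and ran from 0 to 158 with a library left out, where 158 was without untreated 14 and 0 without any of the others. The 13 members at or above 1 FPKM in every library remained 13 in number after rescaling outside mitochondrial genes and without any library, and were 19 at a threshold of 0.5 FPKM and 10 at 2 FPKM. The members on the same side of the threshold in all libraries numbered 33 to 36 under all settings tried.

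Signs of log2 fold changes were not stable, and 10 of the 16 members reversed in some alternative. Quantile normalization gave -0.066 for Hoxd4, -0.037 for Hoxa7 and -0.10 for Hoxc4, median centring gave -0.048 for Hoxa7 and -0.092 for Hoxc4, and array weights gave -0.43 for Hoxa7, -0.17 for Hoxa5 and -0.14 for Hoxc4. Counting the identical tables separately gave -0.050 for Hoxa7 and -0.029 for Hoxc4. With a library left out, the range was -0.0078 to 0.81 for Hoxa3, -0.22 to 0.33 for Hoxa5, -0.37 to 0.42 for Hoxa7, -0.20 to 0.017 for Hoxb4, -0.19 to 0.18 for Hoxc4, -0.49 to 0.076 for Hoxc5, -0.49 to 0.16 (0.15 without treated 33/35, the other reversal) for Hoxc6, -1.16 to 0.11 for Hoxc8, -0.087 to 0.41 for Hoxd4 and -0.27 to 1.06 for Hoxd8. The cause was not tested. Quantile normalization moved the median of all genes to -0.038 and median centring to -0.051, from 0.061.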

Other observations

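Some genes known to mark the interscapular brown fat lineage or the forelimb region were present at low levels, several of them under 1 FPKM in some libraries. Zic1, a marker of classical brown fat, measured 1.01, 2.80 and 3.44 FPKM with diet alone (samples 13, 14 and 15) and 1.66 and 3.56 FPKM with RO5508887 (17 and 33/35). Lhx8, used in the same way, measured 0.741, 0.720 and 1.48 FPKM and 0.421 and 2.88 FPKM in the same order. Tbx5, a forelimb and heart factor, measured 0.814, 0.304 and 0.913 FPKM with diet alone and 1.38 and 2.24 FPKM with RO5508887 (17 and 33/35, log2 fold change 0.99, SE 0.39, limma adjusted p = 1.00). Shox2, a limb patterning gene, measured 0.149 FPKM in untreated 15 and 1.44 to 3.78 FPKM in the other libraries, and untreated 15 was also the library with the lowest Hoxc8. These genes were picked from their list after their values were seen, and they do not identify the depot. Pitx1, of the same list, was at 0 in untreated 13 and 15. It measured 2.76 FPKM in untreated 14 and 1.05 and 0.407 FPKM with RO5508887 (17 and 33/35).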
